A study of Mus musculus with 6 samples.

Results

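The genes described here are the core of the transforming growth factor beta (TGF-beta) pathway in BV2 cells. They were chosen by name as 10 gene symbols of the count table, namely the ligands Tgfb1 and Tgfb3, the receptors Tgfbr1 and Tgfbr2, the signal transducers Smad2, Smad3 and Smad4, and the negative regulators Smad7, Ski and Skil. All 10 were found among the 46095 symbols of the table, and all 10 passed the filter on low counts that left 14120 genes to test. BV2 is an immortalized line of mouse microglia, the resident macrophages of the brain. The CON group was left untreated, and the sTREM-1 group was incubated with recombinant sTREM-1, the soluble form of the myeloid receptor TREM-1, at 1 μg/mL for 6 h. Each group had 3 RNA-seq libraries of total RNA. Both groups were the same line, so neither shows how microglia in brain tissue respond, and the labels name no vehicle or control protein for the CON group.

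TGF-beta ligands are secreted in a latent form and, once released, bind the type II receptor TGFBR2, which then phosphorylates the type I receptor TGFBR1. The active receptor phosphorylates SMAD2 and SMAD3, and these enter the nucleus with the shared partner SMAD4 to switch genes on or off. The pathway is known for strong negative feedback, since SMAD7 blocks the receptor and the corepressors SKI and SnoN (encoded by Skil) silence SMAD complexes on DNA. In the brain, TGF-beta signaling is known to maintain the resting identity of microglia.

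The libraries held 40070633 to 45877107 counts, and replicates of a group varied with a biological coefficient of 3.99%. Of the 9 microglia and macrophage markers examined, 8 were expressed, and their summed level was 2799 to 2824 CPM (counts scaled to library size) in the CON libraries and 3081 to 3158 CPM after sTREM-1. Most of this difference lay in Csf1r, the receptor of colony-stimulating factor 1, at 521 ± 3.13 CPM without and 753 ± 20.5 CPM with sTREM-1 (SD, n = 3 each). Among the 8 tested markers, 4 (50%, against 30.5% of all tested genes) passed an adjusted p-value under 0.05, all higher. Besides Csf1r these were Ptprc, Trem2 and Adgre1, with log2 fold changes of 0.10, 0.14 and 0.13. Itgam, Spi1, Cd68 and Tyrobp did not pass, with log2 fold changes of 0.05, 0.07, -0.04 and -0.04. Aif1, which encodes IBA-1, had 0 counts in every library, which allows at most 0.0756 CPM in the shallowest one if its reads could be counted. In all, 23335 of the 46095 symbols had 0 counts in every library. The annotation used for counting is not given. Whether the 0 of Aif1, or of any gene named below, reflects the cells or the counting was not tested. Markers of neurons, astrocytes and fibroblasts summed to less than 1 CPM in every library. Those of oligodendrocytes summed to 7.29 to 7.91 CPM in the CON group and 5.58 to 6.70 CPM after sTREM-1, with Mog at 0 in all libraries, and those of endothelial cells to 1.23 to 1.68 CPM over both groups, with Cldn5 at 0. The part of such RNA in the results was not tested.

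After sTREM-1, Smad3, Smad7 and Ski fell and Skil rose, while the ligands, both receptors, Smad2 and Smad4 did not pass the test. Thus 4 of the 10 genes were called at an adjusted p-value under 0.05, with 1 higher and 3 lower. Among all tested genes 30.5% were called in either direction, 16.5% higher and 14.1% lower, or 2324 and 1988 genes, and with upper-quartile scaling this balance turned to 1977 higher and 2383 lower. The 4 called genes were a transducer, its inhibitor and both corepressors. The median log2 fold change of the 10 genes was -0.03, against -0.0017 over all tested genes, and was -0.064 without sTREM-1 replicate 1 and -0.054 with upper-quartile scaling. Their median absolute log2 fold change was 0.13 in both sets. The log2 fold changes of Smad3 and Smad7 were large for this experiment, since only 9.48% and 10.9% of tested genes had a larger absolute value. In RNA of whole cultures, less of a transcript per cell and fewer cells that express it cannot be told apart.

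**Figure D1:**
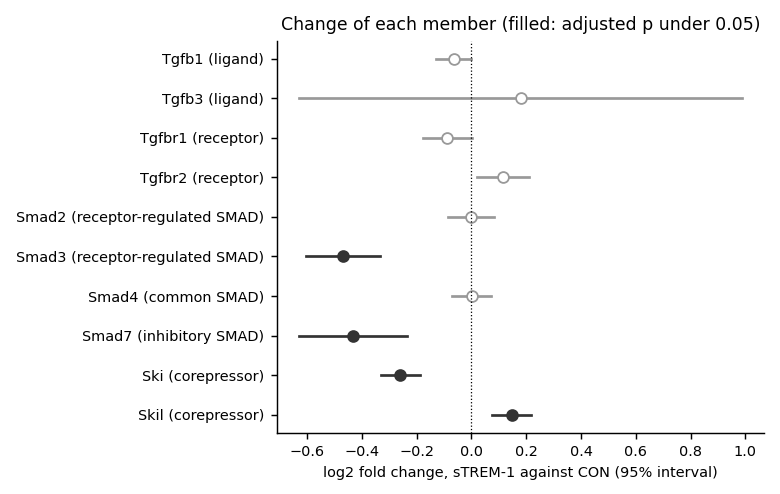
Log2 fold change of each gene after sTREM-1 against CON (horizontal axis) with its 95% interval from edgeR's quasi-likelihood fit, ordered by role. Filled points had an adjusted p-value under 0.05. Smad3, Smad7 and Ski lie below 0 at -0.47, -0.43 and -0.26, Skil lies above 0 at 0.15, and Tgfb3 has the widest interval.

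Tgfb1 was the main ligand transcript of these cells. It lies on chromosome 7 of the mouse build GRCm38 from 25687002 to 25705077. Its level was 116, 114 and 117 CPM in CON replicates 1, 2 and 3 and 109.8, 112 and 110.0 CPM in the sTREM-1 replicates. The sTREM-1 values all lay below those of the CON group, but the gap was small. The log2 fold change was -0.06 (standard error 0.03, 95% interval -0.13 to -0.0013, edgeR adjusted p = 0.120), so Tgfb1 did not pass the test. Tgfb3, on chromosome 12 from 86056745 to 86079041, was at the edge of detection, since CON replicates 1, 2 and 3 had 17, 28 and 27 counts and the sTREM-1 replicates 41, 29 and 16. These values overlapped over their whole range. Its log2 fold change was 0.18 with a 95% interval from -0.63 to 0.99 (edgeR adjusted p = 0.787), so a change of moderate size in either direction was not detectable at this depth. Part of its exons is also covered on the other strand by 2 annotated genes, Gm37804 and Gm48008, with 163 and 257 shared bases, and the strand setting of the counting is not given in the sources used here. The third ligand gene, Tgfb2, did not pass the filter, and had 8, 6 and 7 counts without sTREM-1 and 26, 16 and 5 with it.

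The receptor genes moved by less than 10% and did not pass the test. Tgfbr1, the type I receptor kinase, lies on chromosome 4 from 47353222 to 47414931. It had 58.3, 63.9 and 62.4 CPM in the CON libraries and 56.3, 61.2 and 56.1 CPM after sTREM-1. The groups overlapped, since sTREM-1 replicate 2 lay above CON replicate 1. The log2 fold change was -0.09 (standard error 0.04, 95% interval -0.18 to 0.0014, edgeR adjusted p = 0.136). Without sTREM-1 replicate 2 it was -0.13 and passed (edgeR adjusted p = 0.0341). Tgfbr2, the ligand-binding type II receptor, lies on chromosome 9 from 116084293 to 116175360. It had 37.0, 37.0 and 37.5 CPM in the CON libraries and 40.3, 41.2 and 39.1 CPM after sTREM-1. Each sTREM-1 library was higher than each CON library. The log2 fold change was 0.11 (standard error 0.05, 95% interval 0.02 to 0.21), and after adjustment over all tested genes the edgeR p was 0.0636. Thus 6 of the 10 genes had groups that did not overlap, of which Tgfb1 and Tgfbr2 were not called. The same held for 40.7% of all tested genes.

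Of the receptor-regulated transducers, which the active receptor phosphorylates, Smad3 fell and Smad2 did not pass the test. Smad3, on chromosome 9 from 63646767 to 63757994, was counted 955, 1009 and 1066 times in CON replicates 1, 2 and 3, or at 23.3, 24.6 and 26.1 CPM. After sTREM-1 it was counted 821, 744 and 716 times, or at 18.0, 17.5 and 18.0 CPM. The groups were well apart, and the sTREM-1 values were within 1 CPM of each other. The mean fell from 24.7 ± 1.40 to 17.8 ± 0.322 CPM (SD, n = 3 each). On the log2 scale this was a difference of -0.47 with standard error 0.07 (edgeR adjusted p = 1.7e-06), which was the largest absolute change among the 10 genes. Smad2, on chromosome 18 from 76241580 to 76310963, had 54.1, 53.0 and 51.6 CPM in the CON libraries and 52.1, 53.0 and 53.5 CPM after sTREM-1. Its groups overlapped, and the 95% interval of its log2 fold change ran from -0.09 to 0.08 (edgeR adjusted p = 0.980). Smad4, the partner shared with the bone morphogenetic protein (BMP) arm, lies on chromosome 18 from 73639009 to 73703780. It had 89.8, 86.0 and 89.4 CPM in the CON libraries and 87.1, 91.2 and 87.3 CPM after sTREM-1. These also overlapped, with a 95% interval from -0.07 to 0.07 (edgeR adjusted p = 0.981). For both genes the interval leaves out a change as large as that of Smad3.

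Smad7, the inhibitory SMAD that binds the active type I receptor and directs its degradation, fell. The gene lies on chromosome 18 from 75367529 to 75395935. Its level was 11.1, 11.7 and 11.6 CPM in the CON libraries and 9.63, 7.95 and 7.91 CPM after sTREM-1. All sTREM-1 libraries were lower, and replicate 1 was the closest to the CON group. The mean went from 11.5 ± 0.313 to 8.50 ± 0.980 CPM (SD, n = 3 each). The log2 fold change was -0.43 with standard error 0.10 (edgeR adjusted p = 0.000785). Without sTREM-1 replicate 1 the fall was larger, at -0.53 on the log2 scale. Smad7 is itself a widely used TGF-beta target gene, as is Skil, and they moved in opposite directions.

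The corepressors Ski and Skil moved apart as well. Ski, on chromosome 4 from 155154075 to 155222592, had 82.4, 83.6 and 81.2 CPM in the CON libraries and 69.0, 68.9 and 68.6 CPM after sTREM-1. The fall was more than 10 CPM in any pair of libraries, while libraries of a group differed by less than 3 CPM. The mean went from 82.4 ± 1.24 to 68.9 ± 0.211 CPM (SD, n = 3 each). On the log2 scale this was a difference of -0.26 with standard error 0.04 (edgeR adjusted p = 1.0e-06). Skil, on chromosome 3 from 31095058 to 31122577, had 93.4, 95.9 and 99.8 CPM in the CON libraries and 102, 110.3 and 108 CPM after sTREM-1. All sTREM-1 values were higher, although sTREM-1 replicate 1 was close to CON replicate 3. Its mean rose from 96.3 ± 3.22 to 107 ± 4.19 CPM (SD, n = 3 each). The log2 fold change was 0.15 with standard error 0.04 (edgeR adjusted p = 0.00178).

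**Figure D2:**
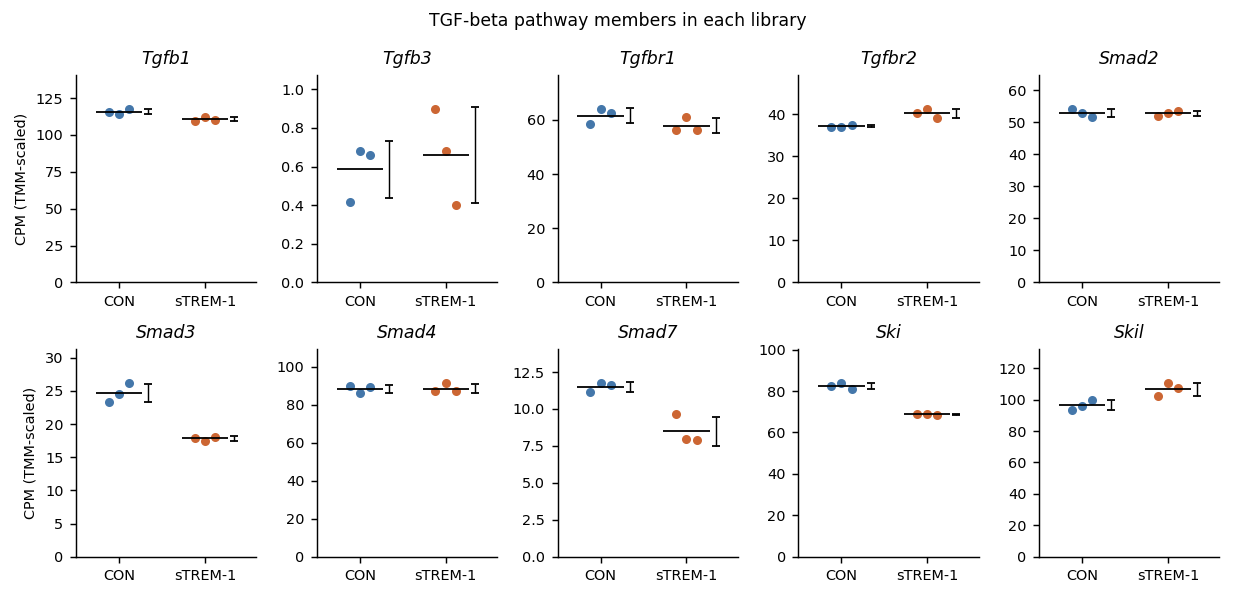
Level of each gene in CPM after TMM scaling (vertical axes, from 0, a scale of its own in each panel) in the 3 CON and 3 sTREM-1 libraries, with 1 point per library, a line at the group mean and a bar of 1 SD beside it. The groups are apart for Smad3, Smad7, Ski, Skil, Tgfb1 and Tgfbr2, and overlap for the other genes.

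The upstream sequences are shown for Smad3 and Ski, which fell, and for Tgfbr2, which did not pass the test, since SMAD proteins bind short motifs in promoters. The windows hold the 250 bases before the RefSeq start on GRCm38.p6, written along the gene's strand. The set of RefSeq promoters used here had entries for 5 of the 10 genes, which does not mean that RefSeq lacks the others. For Ski this start lies inside the GENCODE M21 span given above, so part of its window is within that span. Capitals mark 3 SMAD-type motifs on either strand, which may overlap each other, namely the SMAD-binding element CAGAC, a first GC-rich motif that reads GGCGC, and a second that reads GGCCG.

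Smad3 (chr9:63757995-63758244, minus strand): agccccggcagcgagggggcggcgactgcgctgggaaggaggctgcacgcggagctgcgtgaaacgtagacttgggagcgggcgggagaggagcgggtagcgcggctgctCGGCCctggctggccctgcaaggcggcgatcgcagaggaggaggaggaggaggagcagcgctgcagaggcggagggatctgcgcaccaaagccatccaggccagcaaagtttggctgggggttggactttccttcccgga

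Ski (chr4:155222536-155222785, minus strand): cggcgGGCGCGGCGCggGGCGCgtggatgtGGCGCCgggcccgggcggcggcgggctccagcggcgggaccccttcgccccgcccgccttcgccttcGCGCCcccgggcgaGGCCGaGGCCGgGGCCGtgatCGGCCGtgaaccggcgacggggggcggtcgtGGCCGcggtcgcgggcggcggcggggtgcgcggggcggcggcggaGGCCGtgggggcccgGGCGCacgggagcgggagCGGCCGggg

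Tgfbr2 (chr9:116175364-116175613, minus strand): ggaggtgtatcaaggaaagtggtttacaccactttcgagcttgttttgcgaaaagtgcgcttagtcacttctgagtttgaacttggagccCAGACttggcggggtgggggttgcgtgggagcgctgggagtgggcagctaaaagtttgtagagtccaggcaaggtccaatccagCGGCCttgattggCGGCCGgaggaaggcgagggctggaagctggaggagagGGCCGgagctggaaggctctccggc

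The Smad3 window held 0 matches of the SMAD-binding element, 0 of the first GC-rich motif and 1 of the second. The Ski window held 0, 7 and 9 matches in the same order, and that of Tgfbr2 held 1, 0 and 4. Windows of this length before all 32851 starts of this set held at least 1 match in 42.2%, 32% and 30.4% of cases for the motifs in this order. The GC-rich motifs consist of G and C only. The share of G and C was 87.6% in the Ski window, 69.2% in that of Smad3 and 58.4% in that of Tgfbr2. The median over all windows was 52.4%. The Tgfbr2 window held more matches of the second GC-rich motif than the Smad3 window, which was richer in G and C. Whether the matches follow base composition was not tested. Neither Smad3 nor Ski thus had a CAGAC in its window, and they differed in their GC-rich motifs. Windows of Tgfb1 and Tgfbr1, which did not pass the test, are not printed. That of Tgfb1 held 0, 1 and 2 matches in the same order. A first window of Tgfbr1 held 0, 3 and 4 matches, and a second held 1, 0 and 0. A window without CAGAC was thus not particular to the genes that fell. The matches describe the letters of these windows and do not show binding.

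Per kb of annotated exon, Smad4 and Tgfb1 were the most abundant of the 10 transcripts and Tgfb3 the least. In the CON group Smad4 had 23.8 ± 0.572 CPM per kb and Tgfb1 22.96 ± 0.342 CPM per kb (SD, n = 3 each), and their library values overlapped. Below them came Ski at 14.8 ± 0.222, Skil at 9.94 ± 0.333 and Tgfbr1 at 9.42 ± 0.443 CPM per kb (SD, n = 3 each), of which the last pair overlapped. Smad2 followed at 6.03 ± 0.140 CPM per kb, and Tgfbr2 at 4.54 ± 0.0317 and Smad3 at 4.45 ± 0.252 CPM per kb again overlapped (SD, n = 3 each). Smad7 at 2.54 ± 0.0692 and Tgfb3 at 0.173 ± 0.0439 CPM per kb closed the order (SD, n = 3 each). The order of the means was the same after sTREM-1, and there every neighbouring pair was apart, including Tgfbr2 at 4.91 ± 0.130 and Smad3 at 3.22 ± 0.0582 CPM per kb (SD, n = 3 each). These levels depend on the exon length of the GENCODE M21 models, which may not be the isoforms that BV2 cells use.

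**Figure D3:**
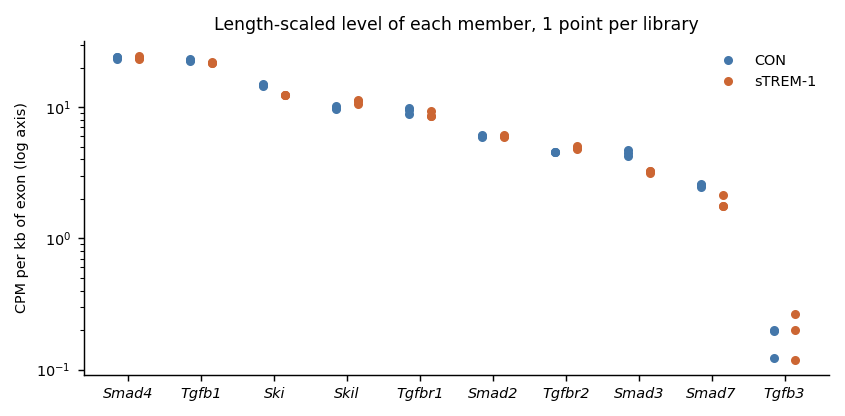
Level of each gene in CPM per kb of exon (vertical log axis), with 1 point per library, blue for CON and orange for sTREM-1. The genes run from Smad4 at 23.8 CPM per kb to Tgfb3 at 0.173 CPM per kb in the CON group, and Smad3 and Tgfbr2 are apart only in the sTREM-1 libraries.

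Ratios within a library do not depend on scaling, and 5 were examined for pairs of these genes. The count ratio of Smad2 to Smad3 was 2.32, 2.16 and 1.98 in the CON libraries and 2.90, 3.03 and 2.97 after sTREM-1. The ratio of Ski to Skil was 0.883, 0.872 and 0.814 in the CON libraries and 0.677, 0.625 and 0.638 after sTREM-1. That of Tgfbr1 to Tgfbr2 was 1.58, 1.73 and 1.67 in the CON libraries and 1.40, 1.48 and 1.44 after sTREM-1. For these 3 pairs the groups did not overlap, and each gave p = 0.1 in an exact two-sided permutation test, the smallest that 3 libraries against 3 allow (exact p adjusted over the 5 ratios, 0.167). The log2 difference between groups was 0.47 for Smad2/Smad3, -0.41 for Ski/Skil and -0.20 for the receptor ratio. With 3 libraries per group no ratio could pass a threshold of 0.05 in this test. The count ratio of Smad7 to Smad3 was 0.477, 0.477 and 0.445 in the CON libraries and 0.536, 0.456 and 0.439 after sTREM-1. Its groups overlapped (exact permutation p = 0.9, adjusted 0.9). The counts of Tgfb1 were 167 to 279 times those of Tgfb3 in the CON libraries and 122 to 273 times after sTREM-1 (exact permutation p = 0.5, adjusted 0.625).

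**Figure D4:**
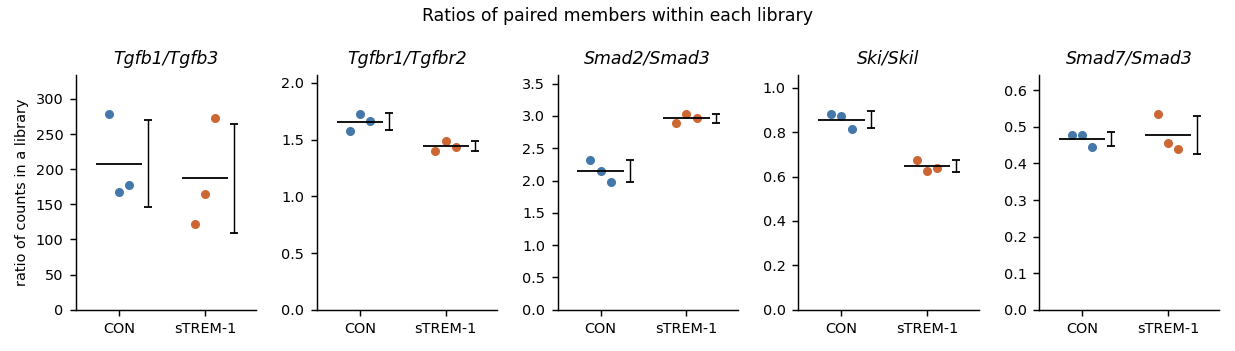
Ratio of the counts of 2 genes within each library (vertical axes, from 0, a scale of its own in each panel) for 5 pairs, with 1 point per library, a line at the group mean and a bar of 1 SD. The groups are apart for Tgfbr1/Tgfbr2, Smad2/Smad3 and Ski/Skil and overlap for Tgfb1/Tgfb3 and Smad7/Smad3.

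Other genes around the pathway were described from 7 lists with 133 entries, of which 99 were tested. Of these 99, 41 were called, 25 higher and 16 lower, which is 41.4% against the 30.5% of all tested genes, with a median log2 fold change of 0.04. By list, the share called ran from 27.3% in the BMP and activin arm to 52.9% among SMAD transcription partners. The lists were chosen with earlier results of these data known, so this comparison is no test of the pathway. Among genes for the third ligand, latency, activation and co-receptors, 8 of 16 were tested, 1 was higher and 2 were lower. Nrros, which tethers latent TGF-beta1 on microglia, rose from 109.0 ± 1.94 to 139 ± 3.75 CPM (SD, n = 3 each). On the log2 scale this was a difference of 0.35 with standard error 0.03 (edgeR adjusted p = 2.8e-10). Thbs1 encodes thrombospondin-1, an activator of the latent ligand, and fell from 9.39 ± 0.680 to 5.62 ± 0.894 CPM (SD, n = 3 each). The log2 fold change was -0.74 with standard error 0.11 (edgeR adjusted p = 8.1e-06). Cd109, a co-receptor that dampens signaling, fell with a log2 fold change of -0.27, and lost the call without CON replicate 1 or 3 or without sTREM-1 replicate 1 or 3, and with no filter on low counts, with edgeR adjusted p-values up to 0.133. The integrin subunit gene Itgav and the proprotein convertase gene Furin were well expressed and did not pass, with log2 fold changes of -0.0011 and 0.03.

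Of 20 regulators of receptor and SMAD turnover, 19 were tested, 2 were higher and 6 lower, and the list's median log2 fold change was -0.04, against -0.061 without CON replicate 3 and -0.058 with upper-quartile scaling. The ubiquitin ligases Nedd4l and Smurf2, which remove receptors and SMADs, fell with log2 fold changes of -0.21 and -0.20, and Smurf2 did not pass without sTREM-1 replicate 3 (-0.14, edgeR adjusted p = 0.0612). Tgif2, a SMAD corepressor of low level, fell from 1.56 ± 0.116 to 0.848 ± 0.256 CPM (SD, n = 3 each), and did not pass without CON replicate 1 or 3 or sTREM-1 replicate 2 or 3, with log2 fold changes from -0.88 to -0.72. Usp4, a deubiquitinase that stabilizes the type I receptor, rose by 0.15 on the log2 scale. Rnf111 encodes a ligase that degrades SMAD7, Ski and SnoN. It rose by 0.12 on the log2 scale, and did not pass with upper-quartile scaling, without CON replicate 2 or without sTREM-1 replicate 1 or 2 (edgeR adjusted p up to 0.148). The BMP and activin arm had 11 of 26 genes tested, of which 1 was higher and 2 were lower. Acvrl1, the type I receptor ALK1, rose from 31.6 ± 1.22 to 39.99 ± 0.699 CPM (SD, n = 3 each), while the type II receptor gene Acvr2a fell by 0.24 and Gdf15, a stress-induced ligand gene, fell by 0.35 on the log2 scale. The Bmp2, Bmp4, Bmp6, Bmp7, Inhba and Inhbb ligand genes had 0 counts in all libraries.

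The 21 target genes that are widely used as readouts of TGF-beta in other cells did not move one way, with 17 tested, 6 higher and 2 lower and a median log2 fold change of 0.15, which was 0.096 without CON replicate 1. Id2 and Id3, inhibitors of DNA binding that also answer to BMP signals, rose by 0.29 and 0.23 on the log2 scale. Gadd45b, a stress gene, and Klf10, a zinc finger repressor first known as an early TGF-beta gene, fell with log2 fold changes of -0.42 and -0.18. Junb, Cdkn1a and Bhlhe40, named after their values were seen, had log2 fold changes of 0.16, 0.20 and 0.16. Ccn2 (listed under its older symbol Ctgf) and Timp3 had 0 counts in all libraries, and Fn1 and Col1a1 had at most 2 counts in any library.

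All 17 genes for SMAD transcription partners were tested, and 7 were higher and 2 lower. The corepressors Ncor1 and Ctbp1 and the pocket protein gene Rbl1 rose by 0.21, 0.19 and 0.16 on the log2 scale, the last not without sTREM-1 replicate 2 (0.11, edgeR adjusted p = 0.0570). The acetyltransferase coactivators Ep300 and Crebbp, named after their values were seen, were also called higher, with log2 fold changes of 0.08 and 0.13, and neither passed without CON replicate 2 or sTREM-1 replicate 1, nor Ep300 without sTREM-1 replicate 3 or with upper-quartile scaling. Foxh1 fell by 0.72 on the log2 scale at under 2 CPM, and lost the call in 4 of the 6 fits that left out 1 library, without CON replicate 1 or 2 or sTREM-1 replicate 2 or 3. The other lower gene, Runx3, named after its values were seen, had counts of 78, 59 and 213 in CON replicates 1 to 3 and of 55, 77 and 61 after sTREM-1, and without CON replicate 3 its log2 fold change was -0.14 (edgeR adjusted p = 0.776). Runx3 also did not pass without sTREM-1 replicate 1 or 3, or with DESeq2 (DESeq2 adjusted p = 0.252). The number of partners called was 5 without CON replicate 2 and 4 without sTREM-1 replicate 3, against 9 with all libraries. Of the 16 genes of the branch that runs through TAK1, stress kinases and RHOA rather than SMADs, 4 were higher and 2 lower. This split was 1 and 3 without sTREM-1 replicate 2, 2 and 3 with upper-quartile scaling, and 2 and 2 with RLE scaling, with DESeq2 and without CON replicate 1 or 3 or sTREM-1 replicate 3. Map2k3, a p38 kinase kinase, fell from 67.6 ± 1.45 to 53.8 ± 2.23 CPM (SD, n = 3 each), or -0.33 on the log2 scale, and Mapk9, which encodes JNK2, rose by 0.20 on the log2 scale. Traf6, an adaptor of TAK1, had a log2 fold change of 0.11 and an edgeR adjusted p of 0.0446, which rose to between 0.0531 and 0.171 without any 1 of the libraries. It also missed the threshold with RLE or upper-quartile scaling, with no filter on low counts and with DESeq2.

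Of 17 microglial genes known to depend on TGF-beta, 11 were tested, 4 were higher and 0 lower, and the list's median log2 fold change was 0.19. The share called was 36.4%, near the 30.5% of all tested genes. Most of them were near the limit of detection in these counts, and for those at 0 the limit given for Aif1 holds as well. Tmem119, a marker of resident microglia, had 1.47 CPM in the CON group and 1.45 CPM after sTREM-1, and Sall1, Gpr34 and Siglech had 0 counts in all libraries. Cx3cr1, the fractalkine receptor, had 33, 45 and 38 counts in CON replicates 1 to 3 and 56, 93 and 75 after sTREM-1. C1qa, a complement subunit, had 50, 77 and 68 counts against 126, 103 and 98. Both rose, with log2 fold changes of 0.90 and 0.68 (edgeR adjusted p = 0.0156 and edgeR adjusted p = 0.0182). Cx3cr1 did not pass without CON replicate 1 or sTREM-1 replicate 2 or 3 (log2 fold changes from 0.71 to 0.84), nor C1qa without CON replicate 1 or sTREM-1 replicate 1 (0.52 and 0.62). The higher genes also included Golm1, with a log2 fold change of 0.17, and P2ry13, named after its values were seen, whose groups overlapped and which did not pass without CON replicate 2 or 3 or sTREM-1 replicate 1 or 2 (log2 fold changes from 0.66 to 0.85). The number called was 2 without CON replicate 1, sTREM-1 replicate 1 or sTREM-1 replicate 2. Without CON replicate 2 there were 3 higher and 1 lower, the latter being Olfml3, named after its values were seen, which had a log2 fold change of -0.64 and did not pass with all libraries (edgeR adjusted p = 0.0658).

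**Figure D5:**
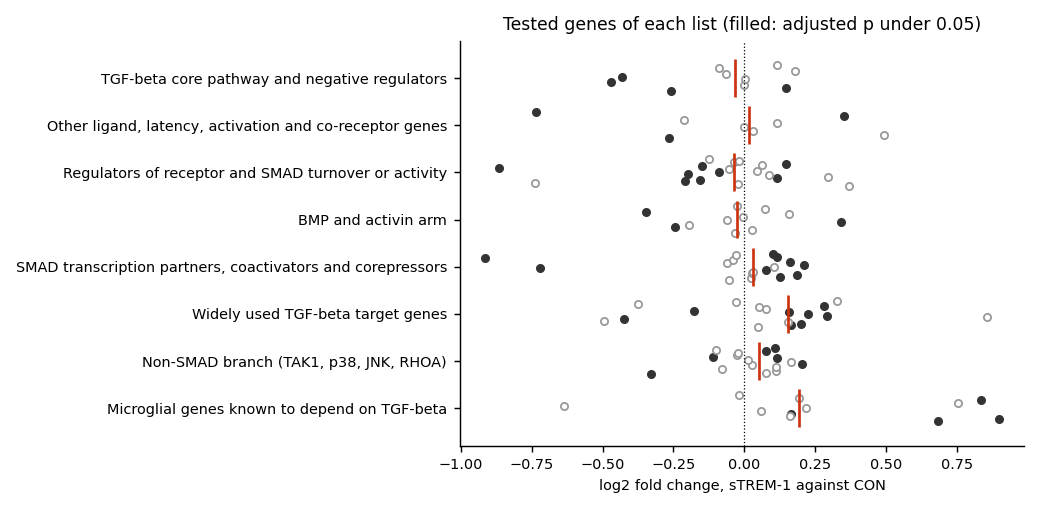
Log2 fold change after sTREM-1 against CON (horizontal axis) of the tested genes in the core list and 7 further lists, with 1 point per gene, filled at an adjusted p-value under 0.05, and a red line at the median of each list. Called genes lie on both sides of 0 in 7 of the 8 rows. In the row of microglial genes 4 of 11 (36.4%, against 30.5% of all tested genes) were called, all above 0.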

How the data were processed

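RNA of untreated (CON) and sTREM-1-treated BV2 cells was measured by RNA-seq in 3 libraries per group. The deposited values are raw whole-number counts for each gene symbol. The authors' methods name RSEM for expression levels scaled to length and depth (FPKM). They do not say which program gave the counts. The submitters' processing notes name HISAT2 2.0.4 and the human builds hg19 and GRCh38, although the symbols are those of mouse genes. The mouse build, annotation and strand setting are not given in the sources used here, so overlapping genes may share reads. Groups and replicate numbers were taken from the labels. The labels describe cells seeded in a multi-well plate with 3 per group, and the authors' methods give another n. Neither says whether the libraries came from independent cultures, so p-values measure the spread between these libraries, which may be technical.

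In R 4.3.3, edgeR 4.0.16 was used for the filter on low counts (filterByExpr, minimum count 10), TMM scaling and a quasi-likelihood test without covariates. P-values were adjusted by Benjamini-Hochberg over 14120 genes. Genes were called at an adjusted p-value under 0.05. Standard errors were the log2 fold change divided by the root of F. On simulated data with 200 changed genes, balanced in direction, the procedure recovered 56.5% at a fold change of 1.25 and 70.5% at 1.5. The share of false calls was 7.38% and 9.03%, above the threshold. Far fewer genes changed there than the 4312 called here, so these shares may not hold for the real calls. CPM per kb used GENCODE M21 exon lengths. Named outside the core were up to 3 genes per direction and list, with the largest change among called genes without overlap. Some of these genes are not reported here. The members and lists were chosen with earlier results of these data known. Alternatives were RLE and upper-quartile scaling, no filter, 10 counts in every library, DESeq2 1.42.0, a replicate block and leaving out each library. Intervals and the limit from a count of 0 (3 counts) cover counting error or library spread only.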

Additional observations from a re-analysis of the deposited data

How the results depend on the processing

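Smad3, Smad7, Ski and Skil kept their direction and passed the threshold under all 12 alternatives, with log2 fold changes from -0.51 to -0.43, from -0.53 to -0.39, from -0.28 to -0.25 and from 0.12 to 0.18. The number of core genes called was 4 or 5. The fifth was Tgfb1 under upper-quartile scaling (-0.09, edgeR adjusted p = 0.0346), which shifted the median of all genes by -0.021, and Tgfbr1 without sTREM-1 replicate 2. Over all genes, 3608 to 4613 were called, and DESeq2 called 4027. Of the 41 called genes of the other lists, 23 passed under all alternatives and 0 changed direction. Leaving out a library gave 4 to 8 called SMAD partners and 2 to 4 called microglial genes.

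The direction changed for genes with values near 0. Smad4 was at -0.0015 with RLE size factors and with DESeq2, -0.0192 with upper-quartile scaling, -0.0016 with at least 10 counts in every library, and -0.0223 to 0.0132 over the fits without 1 library. Smad2 was at 0.00064 without a filter and -0.0213 to 0.0135 without 1 library, and Tgfb3 ran from -0.11 to 0.43. The log2 difference of Tgfb1/Tgfb3 between groups ran from -0.51 to 0.069 and that of Smad7/Smad3 from -0.060 to 0.085 without 1 library. The cause was not tested. Adding the replicate block raised the count to 4613, and the 4 core genes kept their calls. Deviations of same-numbered libraries correlated at -0.018, -0.033 and -0.014, so no pairing by number was detected, although these values cannot exclude one. Tgfb3 had only 16 to 41 counts in a library, and the part of depth in its spread was not tested.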
